A study of Mus musculus with 6 samples.

Results

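The subject is a set of 43 mouse genes whose proteins carry a cell through G2 and mitosis, followed through 6 sorted blood-forming populations of wild-type and Mof heterozygous mice. The members were taken by gene symbol from a fixed list of mitosis and G2/M genes, chosen with earlier results of these data known. All 43 were found among the 23538 genes of each table. In all, 40 members passed the filter on low values used for testing (a mean of at least 1 count after each library was rescaled to 41227 counts) and are among the 6501 genes tested. Kif20a, Bub1 and Aurka, with 4, 36 and 42 counts over all libraries, did not pass it and are given by their counts only.

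Bone marrow cells were sorted by flow cytometry, 15 cells per sort, and their RNA was made into CEL-Seq2 libraries, in which a tag at the 3' end of each transcript is sequenced and counted. The sorts covered stem cells (HSC), 3 multipotent progenitor classes (MPP2, MPP3, MPP4), the myeloid progenitor CMP and the progenitor of megakaryocytes and red cells, MEP. Each was sampled as 3 libraries from wild-type and 3 from Mof -/+ mice, which carry 1 working copy of the gene for the histone H4 lysine 16 acetyltransferase MOF (symbol Kat8), for 36 libraries in 12 groups. HSC and MPPs were Sca-1-positive cKit-positive marrow cells without lineage markers (LSK), and CMP and MEP were Sca-1-negative. The sources used here do not give ages, how the deleted allele was made or whether a Cre driver was used. The libraries belong to 6 deposited samples, called pools here, that differ in genotype, so pool and genotype cannot be told apart. Within a genotype, HSC formed 1 pool, the MPPs another, and CMP with MEP the third, so population and pool cannot be told apart either where HSC are set against MPPs or CMP and MEP against LSK cells. Nothing in the labels ties the 3 libraries of a group to separate mice, so the p-values below cover the spread among these libraries only, which may be technical. With 15 cells in a library, fewer dividing cells and less mitotic RNA per cell cannot be told apart.

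In a dividing cell, cyclins A and B bind the kinase Cdk1 to start mitosis, mitotic kinases and motor proteins build the spindle, and the spindle checkpoint holds back the anaphase-promoting complex (APC/C) until every chromosome is attached. The APC/C, with Cdc20 and the ubiquitin-conjugating enzyme Ube2c, then marks cyclin B and securin for destruction, and the centralspindlin proteins divide the cell. Most of these transcripts accumulate only in late S phase, G2 and mitosis, so their level in a pool of cells follows how many cells are in cycle. Stem cells of adult marrow are mostly quiescent, and the multipotent progenitors derived from them cycle more. Stmn1 and the tubulins are also made outside mitosis and are therefore reported beside the rest as well as within it.

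The promoters of the members carry a shared pair of short motifs. The letters TTTGAA or TTCGAA form the core of the cell cycle genes homology region, the element through which the MuvB complex acts on late cell cycle genes, and CCAAT is the element bound by NF-Y. RefSeq windows of 300 bases (250 before to 50 after the start, build GRCm38.p6) were matched for 37 of the 43 members. Ccna2, Smc4, Stmn1, Kif20a, Tpx2 and Aurkb were not matched. Searched on both strands, TTTGAA or TTCGAA occurred in 27 of the 37 members (73.0%) and in 21.7% of 27025 genes with a window. CCAAT occurred in 30 of 37 members (81.1%) and in 41.1% of all genes, and both occurred in 26 members (70.3%) against 8.61% of all genes. A CCAAT beginning 25 to 40 bases before a TTTGAA or TTCGAA, a spacing chosen after the member windows were read, was found in 13 of the 37 (35.1%) and in 0.803% of all genes. A match is a description of the letters and not a bound site. The windows below are those of 4 members on which the results turn and of Cdk1, as an example of the spaced pair. Capitals mark TTTGAA or TTCGAA, or CCAAT, on the strand shown. They also mark the reverse complement of TTTGAA, which is TTCAAA, and that of CCAAT, which is ATTGG. Matches that touch run together.
Ube2c (chr2:164769679-164769978, plus strand): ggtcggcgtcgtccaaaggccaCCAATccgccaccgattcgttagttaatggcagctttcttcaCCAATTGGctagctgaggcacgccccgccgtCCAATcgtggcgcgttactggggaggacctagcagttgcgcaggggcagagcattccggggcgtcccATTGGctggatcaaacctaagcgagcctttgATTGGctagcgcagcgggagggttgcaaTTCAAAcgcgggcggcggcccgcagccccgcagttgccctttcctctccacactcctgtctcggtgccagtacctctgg
Top2a (chr11:99024140-99024439, minus strand): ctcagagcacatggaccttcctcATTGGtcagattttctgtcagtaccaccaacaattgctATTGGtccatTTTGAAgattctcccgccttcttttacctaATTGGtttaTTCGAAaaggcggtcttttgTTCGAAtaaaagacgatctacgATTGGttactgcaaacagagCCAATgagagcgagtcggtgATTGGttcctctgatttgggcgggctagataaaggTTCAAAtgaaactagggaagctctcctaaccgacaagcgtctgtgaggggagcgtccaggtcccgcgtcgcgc
Smc2 (chr4:52438971-52439270, plus strand): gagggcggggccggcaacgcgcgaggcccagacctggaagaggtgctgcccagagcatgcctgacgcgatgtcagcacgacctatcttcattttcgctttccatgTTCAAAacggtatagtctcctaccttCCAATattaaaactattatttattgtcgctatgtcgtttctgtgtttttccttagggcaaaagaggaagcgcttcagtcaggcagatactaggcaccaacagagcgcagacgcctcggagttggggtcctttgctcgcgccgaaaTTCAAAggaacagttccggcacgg
Cdk1 (chr10:69352863-69353162, minus strand): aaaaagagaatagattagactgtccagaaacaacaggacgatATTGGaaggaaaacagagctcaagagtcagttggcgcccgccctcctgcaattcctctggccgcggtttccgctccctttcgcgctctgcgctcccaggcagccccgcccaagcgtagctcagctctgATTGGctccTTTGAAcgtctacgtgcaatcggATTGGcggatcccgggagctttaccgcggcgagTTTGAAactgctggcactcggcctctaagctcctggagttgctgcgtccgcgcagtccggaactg
Nusap1 (chr2:119618048-119618347, plus strand): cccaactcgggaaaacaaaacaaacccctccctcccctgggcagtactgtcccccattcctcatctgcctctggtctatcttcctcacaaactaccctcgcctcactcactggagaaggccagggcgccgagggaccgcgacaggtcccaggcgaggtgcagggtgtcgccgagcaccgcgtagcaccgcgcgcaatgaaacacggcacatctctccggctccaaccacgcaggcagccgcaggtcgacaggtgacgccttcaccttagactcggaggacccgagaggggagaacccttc
The Ube2c window held 6 CCAAT and 1 TTTGAA or TTCGAA, Top2a 6 and 4, Cdk1 3 and 2, and Smc2 1 and 2. The Nusap1 window held neither, as did those of Tuba1b, Birc5, Ncaph, Tacc3 and Mad2l1, and that of Tubb5 held 2 CCAAT alone.

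Some libraries stood apart or went against their labels, and this touches several results below. Library totals ran from 1577 to 123765 counts, and 6 libraries held fewer than 15000 (all 3 wild-type MPP2, wild-type MPP3 replicates 1 and 2, and heterozygous HSC replicate 2 with 1577). A count in heterozygous HSC replicate 2 is worth 634 CPM, and only 4 of the 43 genes were seen in it, with 5 counts. Levels are given as CPM, the share of a library's counts without spike-ins on the usual CPM scale, which are not divided by transcript length. Wild-type HSC replicate 3 held 32.7 CPM of the HSC marker list (Hlf, Procr, Mecom, Slamf1 and Fgd5), against 1272 and 598 in replicates 1 and 2, and 4743 CPM of a list of 10 precursor B cell genes (among them Vpreb1, Igll1, Ebf1 and Rag1), against 103 and 769. Wild-type MPP4 replicate 3 held none of a list of 4 lymphoid priming genes (among them Flt3, Dntt and Il7r) that gave 3786 and 1468 CPM in the other 2 libraries, and 33149 CPM of mature neutrophil genes such as S100a8 and S100a9, against 209 and 446. In all, 7 libraries exceeded 10000 CPM of the neutrophil list: this one, wild-type MPP2 replicate 1, MPP3 replicates 1 and 3, MEP replicates 2 and 3, and heterozygous MEP replicate 3. Kat8, the targeted gene, gave 12 counts over the 18 wild-type and 11 over the 18 heterozygous libraries (0 to 52.8 CPM and 0 to 35.9 CPM), too few to check the genotype labels. The erythroid list was highest in the MEP libraries at 1572 to 2722 CPM, apart from 3878 CPM in heterozygous MPP4 replicate 3, and the myeloid list in CMP at 2733 to 6423 CPM.

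The summed level of the 43 genes ran from 1940 CPM in wild-type MPP4 replicate 3 to 18929 CPM in wild-type MPP4 replicate 2, with a median of 6637 CPM over the 36 libraries. In wild-type libraries the sums for replicates 1, 2 and 3 were 3438, 13621 and 14754 CPM in HSC, 13067, 17749 and 9739 in MPP2, and 9173, 7236 and 6190 in MPP3. For MPP4 they came to 14258, 18929 and 1940 CPM, for CMP to 6534, 5123 and 6425 and for MEP to 6499, 6258 and 7512. CMP and MEP libraries were close to each other, whereas HSC and MPP4 each held 1 library far below the other 2.

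**Figure D1:**
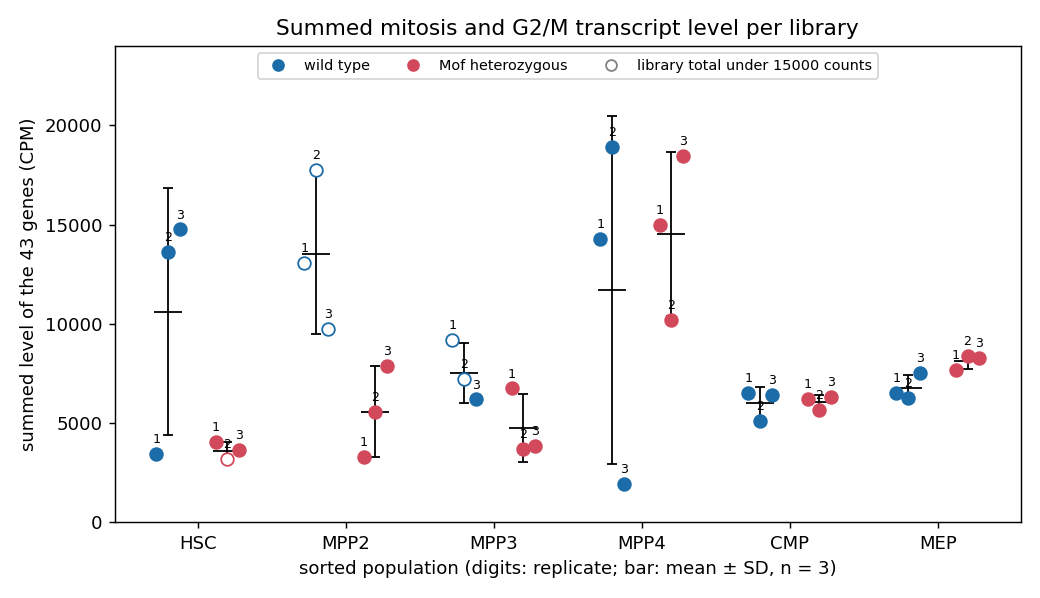
Summed CPM of the 43 genes (vertical axis) in each of the 36 libraries, by sorted population and genotype, with the replicate number above each point and the mean ± SD (n = 3) as a bar. Open points mark libraries under 15000 counts. Heterozygous MPP2 libraries all lie below the wild-type ones, and both genotypes of MPP4 hold libraries of 14258 CPM or more.

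In heterozygous libraries the sums were 4029, 3171 and 3634 CPM in HSC, 3271, 5567 and 7865 in MPP2, and 6740, 3715 and 3828 in MPP3. They reached 14975, 10211 and 18438 CPM in MPP4, against 6231, 5656 and 6318 in CMP and 7675, 8375 and 8275 in MEP. Every heterozygous MPP4 library therefore stood above all 15 other heterozygous libraries. Without Stmn1 and the tubulins MPP4 was again highest and HSC lowest, with 8788 ± 4280 CPM in MPP4 (SD, n = 3), 3874 ± 212 in MEP, 3147 ± 1419 in MPP2, 2631 ± 247 in CMP, 2069 ± 1401 in MPP3 and 1976 ± 479 in HSC. Below MPP4, neighbours in that order did not differ beyond their spread.

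Gene by gene, the same populations stood at the ends. Mean CPM in heterozygous libraries was highest in MPP4 for 35 of the 43 members and lowest in HSC alone for 24, with 2 more tied for lowest there. In wild-type libraries the highest mean was in MPP2 for 16 members, in MPP4 for 13 and in HSC for 10, and the lowest in CMP for 18 and in MPP3 for 15. Within wild-type MPP4, 39 of the 40 tested members were lower in replicate 3 than in both other libraries, against 39.5% of all genes. Within wild-type HSC, 33 of 40 were lower in replicate 1 than in both others, against 25.6% of all genes, and that replicate was also the one with the highest HSC marker level.

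**Figure D2:**
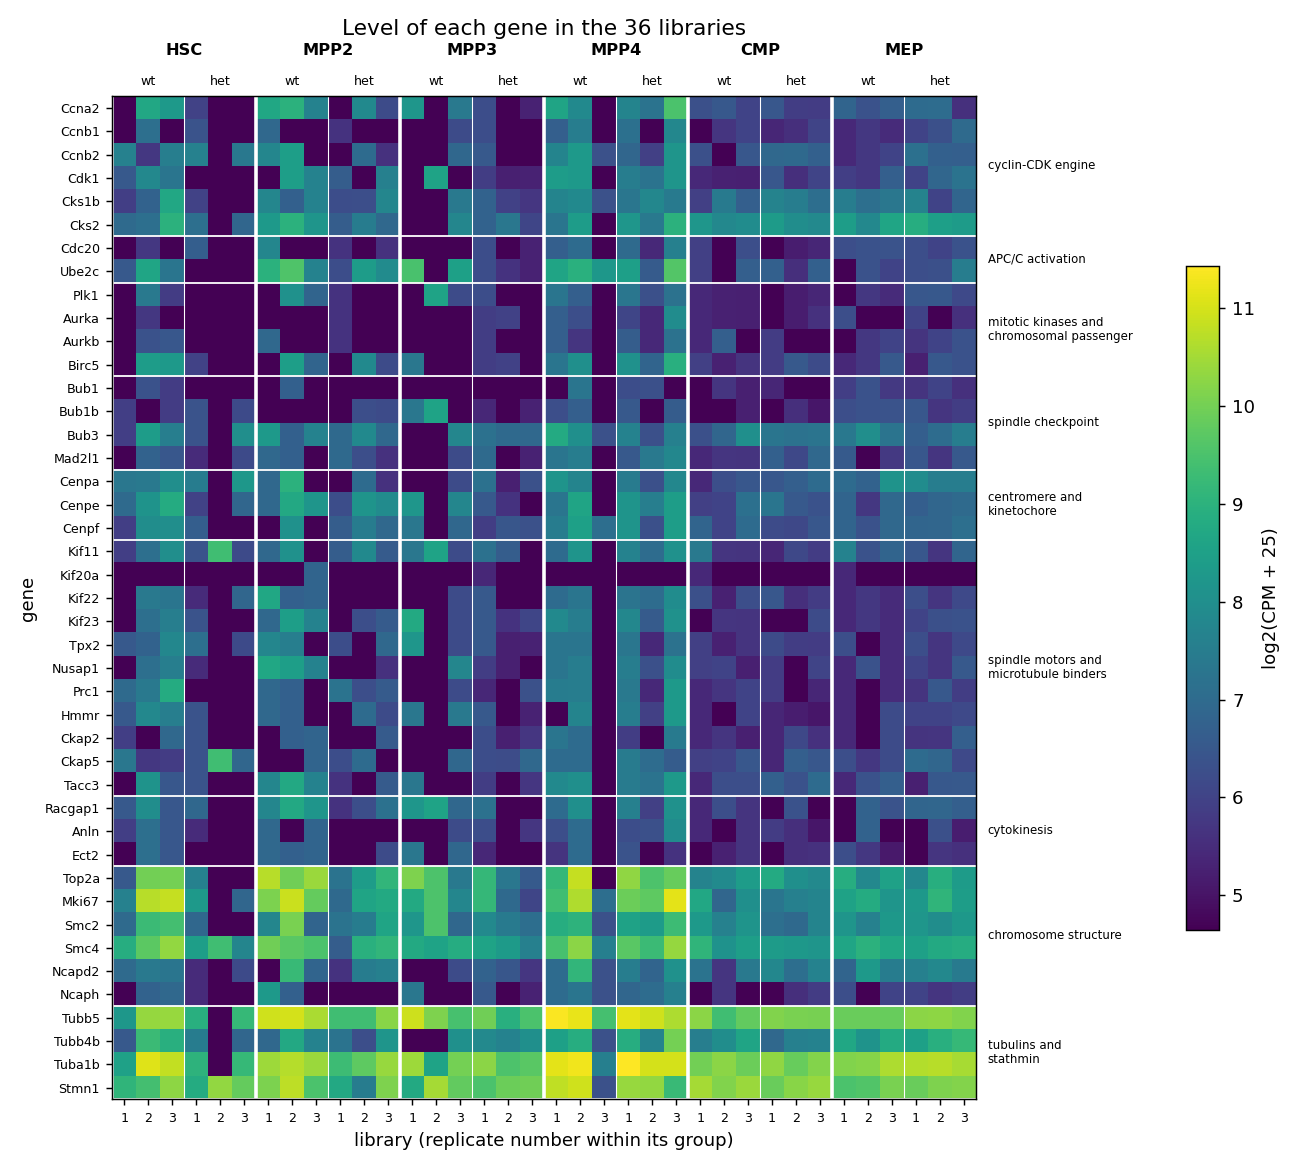
Level of each of the 43 genes (rows, grouped by role) in the 36 libraries (columns, grouped by population and genotype, numbered by replicate), as log2(CPM + 25). Stmn1, Tubb5 and Tuba1b are bright in nearly every library, and wild-type MPP4 replicate 3 and heterozygous HSC replicate 2, with 14 and 4 of the 43 genes seen, are mostly dark.

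Population differences were tested first in the wild type. Differences are log2, on counts rescaled to 41227 per library plus a pseudocount of 1, fitted with limma over all 6501 genes and called at a Benjamini-Hochberg adjusted p under 0.05. The F test over the 6 wild-type populations called 1 of the 40 members, Ube2c (adjusted p = 0.0263), against 3.77% of all genes, and 9 members had an unadjusted p under 0.05 (22.8% of all genes). The share of members past either threshold was therefore no higher than that of all genes. Later counts at that unadjusted threshold without a share of all genes do not separate a shift of the members from one of all genes.

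Ube2c, the ubiquitin-conjugating enzyme of the APC/C (chr2:164769898-164778822, plus strand, GRCm38), was lower in CMP and MEP than in LSK cells. Its wild-type levels in replicates 1, 2 and 3 were 68.8, 370 and 131 CPM in HSC, 484, 729 and 177 in MPP2, 685, 0 and 336 in MPP3, and 366, 472 and 277 in MPP4. In CMP they were 35.9, 0 and 78.5 CPM and in MEP 0, 57.1 and 39.1 CPM. All but 2 of the LSK libraries (HSC replicate 1 and MPP3 replicate 2) stood above every CMP and MEP library. The difference was -2.40 (SE 0.52, limma, adjusted p = 0.00423), and the pooled ratio was 0.105 (14 counts in 402014 against 84 in 254098, exact 95% interval 0.0552 to 0.187, covering counting error only). Without the 7 neutrophil-rich libraries the difference was -2.20 with adjusted p = 0.0587.

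Ube2c was the only member that limma called among 40 in this comparison of CMP and MEP with LSK cells, against 3.20% of all genes. At an unadjusted p under 0.05 there were 11 members, all lower, against 19.2% of all genes in either direction, and leaving out single libraries gave 4 (without wild-type MPP4 replicate 2) to 17 (without wild-type MPP4 replicate 3). The median member differed by -0.61 and the median gene by 0.31, and 29 of 40 members were lower where 69.1% of all genes were higher. With TMM scaling these medians were -0.28 and 0.50, 5 members had an unadjusted p under 0.05 (29.6% of all genes) and 24 of 40 were lower. By role, 9 of 10 spindle motors and microtubule binders, 5 of 6 chromosome structure genes and all 3 cytokinesis genes had negative differences, while 3 of the 4 tubulin and stathmin genes had positive ones. Racgap1, the GTPase-activating part of centralspindlin, differed by -1.57 (adjusted p = 0.0565) and its motor partner Kif23 by -1.40 (adjusted p = 0.0967), and neither passed. edgeR called 5 members here (Ccna2, Kif23, Nusap1, Racgap1 and Ube2c), against 12.4% of all genes, and DESeq2 4 (Cenpe, Kif23, Nusap1 and Ube2c), against 13.5%. The precursor B cell list differed between these wild-type groups as well. It was at 103 to 4743 CPM in HSC, 2807 to 3984 in MPP2, 0 to 1917 in MPP3 and 3029 to 3437 in MPP4. In CMP it was at 26.2 to 39.6 CPM and in MEP at 78.1 to 2286 CPM. The part of this list in the difference was not tested.

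The other wild-type comparisons called no member. For HSC against the 3 MPPs, 0.154% of all genes were called, and 1 member had an unadjusted p under 0.05 (11.0% of all genes): Prc1, which bundles the microtubules of the central spindle, at 1.82 (limma, adjusted p = 0.227). Its wild-type HSC levels were 103, 142 and 425 CPM. For MEP against CMP, inside 1 pool, 0% of all genes were called, and 1 member had an unadjusted p under 0.05 (1.29% of all genes), the checkpoint kinase Bub1b (1.52, adjusted p = 1). There 29 of 40 members were higher in MEP, beside 47% of all genes, with medians of 0.15 for the members and -0.03 for all genes. edgeR and DESeq2 called no member in either comparison, with 5 (14.3% of all genes) and 6 (12.8%) at an unadjusted p under 0.05 for HSC against MPPs and 2 each (5.57% and 3.94%) for MEP against CMP. Between HSC and MPPs the median member differed by 0.23 and the median gene by 0.26. The median member was at -0.18 without HSC replicate 3, the library that went against its label, and at -0.03 without MPP4 replicate 3.

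In the heterozygous libraries MPP4 stood out from MPP2 and MPP3. The comparison of MPP4 with the mean of MPP2 and MPP3 was added after the values were seen. All 3 populations come from 1 pool, but the column numbers of MPP4 do not follow on from those of MPP2 and MPP3. Whether MPP4 was handled apart from them is not given. All 40 tested members were higher in MPP4, against 50.5% of all genes, with a median member difference of 1.34 and a median over all genes of 0.01. At an unadjusted p under 0.05 there were 22 members against 4.61% of all genes, but limma called none after adjustment (0.0769% of all genes called). edgeR's quasi-likelihood test called 20 members and 2.15% of all genes, and DESeq2 called 11 members and 1.37%. Without the 6 shallow libraries limma called 3 members (0.692% of all genes called), and 28 had an unadjusted p under 0.05 (10.6% of all genes). Without MPP4 replicate 3, in which 30 of the 40 members were highest of the 3 MPP4 libraries, 8 members had an unadjusted p under 0.05 (2.78% of all genes) and 38 of 40 were higher. Without MPP4 replicate 1 there were 12 and without MPP2 replicate 1 there were 14.

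Ki-67 (Mki67), which coats mitotic chromosomes and marks cycling cells, shows the pattern. It was at 944, 843 and 2268 CPM in heterozygous MPP4, at 101, 364 and 410 in MPP2 and at 545, 100 and 41.9 in MPP3, so that the MPP4 libraries did not overlap the other 6. The difference was 2.53 (SE 0.73, limma, adjusted p = 0.274). Kif22, a motor that moves chromosomes along the spindle, was at 126.5, 108 and 220 CPM in MPP4, at 0 in all 3 MPP2 libraries and at 68.1, 0 and 0 in MPP3. Its groups did not overlap either, and it had the smallest adjusted p of the members (2.48, SE 0.64, adjusted p = 0.150). The summed precursor B cell list also separated these libraries, with 3293 to 4002 CPM in MPP4 against 572 to 1107 in MPP2 and 100 to 579 in MPP3, and all 10 of its genes were detected in MPP4. Other lists differed as well. The HSC list was at 17.9 to 33.7 CPM in heterozygous MPP4 and at 447 to 688 in MPP3. Within MPP4, replicate 3 held 3878 CPM of the erythroid list, against 160 and 17.9 in replicates 1 and 2, and 415 CPM of the lymphoid priming list, against 3600 and 2243. The part of these lists in the difference was not tested. The neutrophil list was low in each of them, at 390 to 646 CPM in MPP4 and 468 to 1872 CPM in MPP2 and MPP3.

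The same comparison in the wild type gave a median member difference of 0.16 beside 0.31 over all genes, with 23 of 40 members higher. No member was called (0.200% of all genes), and 3 had an unadjusted p under 0.05 (12.6% of all genes). Without MPP4 replicate 3, the neutrophil-rich library without lymphoid priming transcripts, the median member difference was 0.98 beside 0.46 over all genes, 37 of 40 members were higher and 13 had an unadjusted p under 0.05 (13.6% of all genes), with still no member called. Without MPP4 replicate 1 or 2 the median member was at -0.09 and -0.24. Whether the wild type and the heterozygous mice differ in this comparison was not tested.

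**Figure D3:**
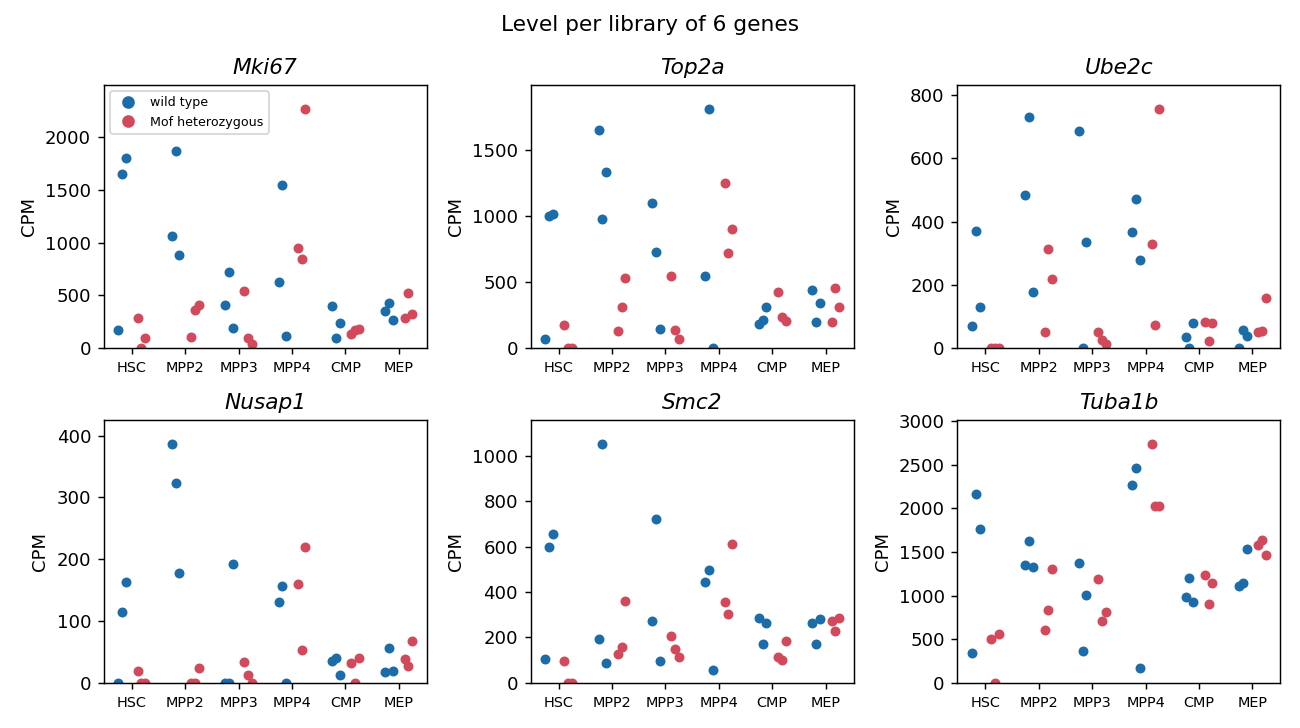
CPM of 6 members (Mki67, Top2a, Ube2c, Nusap1, Smc2 and Tuba1b) in each library, by population, wild type in blue and heterozygous in red, with 3 libraries per group and replicates 1 to 3 from left to right. Heterozygous MPP4 libraries hold 843 to 2268 CPM of Mki67 while heterozygous HSC libraries hold 0 to 289, and Ube2c is 0 in all 3 heterozygous HSC libraries.

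Heterozygous HSC had the lowest mean summed level, but their libraries overlapped those of MPP2 and MPP3. Without Stmn1 and the tubulins, MPP3 replicates 2 and 3 (1426 and 1104 CPM) and MPP2 replicate 1 (1510 CPM) stood below every HSC library (1537 to 2487 CPM). limma called 5 members lower in HSC than in the 3 heterozygous MPPs (0.984% of all genes called, 45 of the 64 genes lower). Top2a, the topoisomerase that untangles sister chromatids, was at 174, 0 and 0 CPM in HSC, at 125.8, 312 and 531 in MPP2, at 545, 138 and 69.9 in MPP3 and at 1248, 718 and 902 in MPP4 (-3.00, SE 0.76, adjusted p = 0.0398). Smc2, the ATPase core of condensin, was at 96.4, 0 and 0 CPM in HSC against a lowest value of 112 among the 9 MPP libraries (-2.62, SE 0.65, adjusted p = 0.0346). Ube2c had no count in 74916 over the 3 HSC libraries and 97 in 526004 in the MPPs, which makes the MPPs at least 4.61-fold higher against a floor of 3 counts over the group (adjusted p = 0.0479). For Smc2 and Ube2c the groups did not overlap, and for Top2a they did.

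The other 2 calls were the alpha tubulin Tuba1b and the beta tubulin Tubb5, building blocks of the spindle that are also made outside mitosis. Tuba1b was at 501, 0 and 559 CPM in heterozygous HSC against 604 to 2740 CPM in the 9 MPP libraries (-2.65, SE 0.62, limma, adjusted p = 0.0267). Tubb5 was at 463, 0 and 559 CPM against 463 to 2234 CPM (-2.43, SE 0.58, adjusted p = 0.0287). Pooled ratios were 0.334 for Tuba1b (exact 95% interval 0.234 to 0.462), 0.380 for Tubb5 (0.264 to 0.532), 0.253 for Smc2 (0.0807 to 0.604) and 0.206 for Top2a (0.0935 to 0.397). How reads of near-identical tubulin copies were assigned is not given in the sources used here, so their counts are uncertain.

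These 5 calls depended on heterozygous HSC replicate 2, the library with 1577 counts. Without it, limma called no member, and the differences were -1.15 for Tuba1b, -0.94 for Tubb5, -2.50 for Top2a, -2.23 for Smc2 and -2.54 for Ube2c. The 5 calls were also lost without MPP3 replicate 1, with adjusted p of 0.0505 for Tuba1b to 0.0926 for Ube2c. Ube2c, Top2a and Smc2 lost theirs without HSC replicate 3 as well, at adjusted p of 0.0695, 0.109 and 0.0880. Leaving out each of the 36 libraries in turn ended the call of Ube2c 27 times (18 of them with libraries outside the comparison, at adjusted p of 0.0520 to 0.0595), of Top2a 8 times, of Smc2 7, of Tubb5 3 and of Tuba1b 2 times. Without heterozygous MPP2 replicate 3 or any 1 of the MPP4 libraries, adjusted p was 0.0512 to 0.0601 for Top2a and 0.0515 to 0.0559 for Smc2, and for Top2a it was 0.0747 without MPP2 replicate 2. The median over all genes in this comparison was -0.53 with HSC replicate 2 and 0.01 without it, and the median member was at -1.0 and -0.73. At an unadjusted p under 0.05 there were 14 members with it (16.2% of all genes) and 8 without it (5.08%). edgeR and DESeq2 called none of the 40 with all libraries, with 12 members each at an unadjusted p under 0.05 (7.03% and 4.74% of all genes).

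Over all 6 heterozygous populations the F test in limma called no member (0.754% of all genes called), while 21 of 40 had an unadjusted p under 0.05 against 8.37% of all genes. edgeR called 22 members by the same F test, against 6.01% of all genes, from every role except the spindle checkpoint and cytokinesis. Without heterozygous MPP4 replicate 3 or HSC replicate 2, limma gave 8 and 12 members at an unadjusted p under 0.05. CMP and MEP against LSK gave no limma call (0.400% of all genes called), 2 members at an unadjusted p under 0.05 (9.61% of all genes) and equal medians of 0.23 for the members and for all genes. Cks2, a small subunit of the Cdk1 complex, was called there by edgeR and DESeq2 and differed by 1.28 in limma (adjusted p = 0.377). MEP against CMP gave no call (0% of all genes), 1 member at an unadjusted p under 0.05 (0.400%, Racgap1 at 1.63, adjusted p = 1), and 32 of 40 members higher in MEP beside 46.6% of all genes.

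Between genotypes, 1 member passed the test in 1 population. Averaged over the 6 populations, limma called no member (0.0769% of all genes called). At an unadjusted p under 0.05 there were 9 (10.4% of all genes), 8 of them lower in heterozygous libraries (Ect2, Mki67, Racgap1, Nusap1, Ube2c, Ccna2, Smc2 and Top2a) and 1 higher, the microtubule polymerase Ckap5. With TMM scaling and with the deposited values that number was 4 each (15.0% and 10.5% of all genes), and TMM moved the members with a positive difference from 9 to 15. The interaction of genotype with population called no member (0.0154% of all genes), and 13 had an unadjusted p under 0.05 (9.64%). That number was 21 without wild-type HSC replicate 1 and 7 without wild-type HSC replicate 2 or 3 or heterozygous HSC replicate 2.

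**Figure D4:**
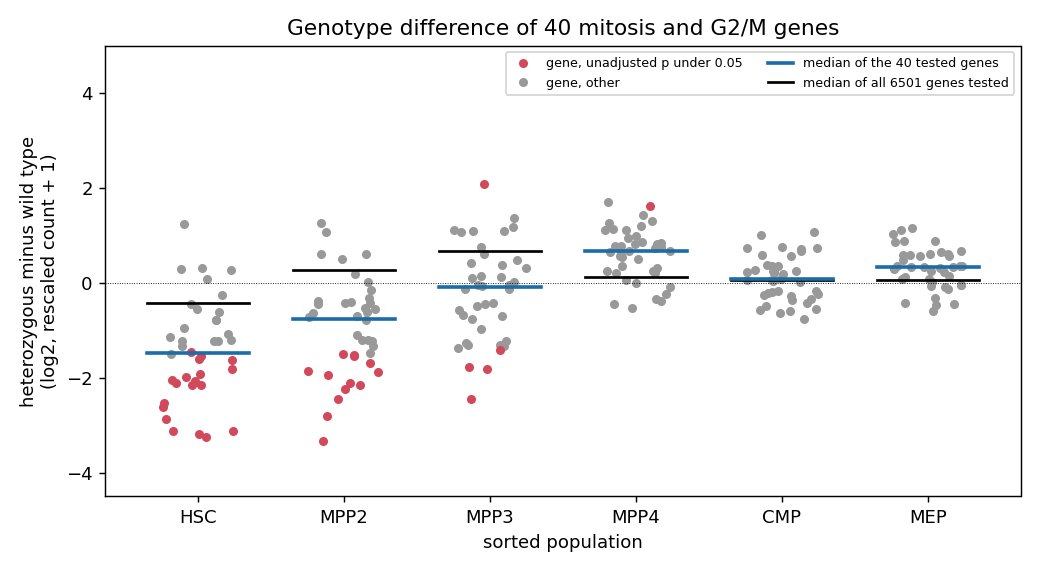
Log2 difference, heterozygous minus wild type, of the 40 tested members in each population (points, spread sideways at random), with the median member in blue and the median of all 6501 genes in black. The median member lies below the median gene in HSC, MPP2 and MPP3 and above it in MPP4 and MEP. Red points have an unadjusted p under 0.05.

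In HSC the ratio of mean summed levels, heterozygous over wild type, was 0.340, and the groups overlapped because wild-type replicate 1 stood at 3438 CPM. No member was called (0.0154% of all genes), whereas 20 of 40 had an unadjusted p under 0.05, all lower, against 10.7% of all genes. The median member differed by -1.48 and the median gene by -0.43. Mki67 was at 172, 1653 and 1799 CPM in wild-type HSC and at 289, 0 and 93.2 in heterozygous HSC (-3.13, SE 0.84, limma, adjusted p = 0.241). Prc1 had no count in the 3 heterozygous libraries and 21 in the wild type, at least 5.53-fold higher in the wild type against the floor of 3 counts over the group (adjusted p = 0.0977), and Cdk1, the kinase of mitotic entry, had 0 and 13 counts, at least 3.43-fold higher (adjusted p = 0.305). In each of these genes except Mki67 the groups did not overlap.

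The number of HSC members at an unadjusted p under 0.05 moved with single libraries. It was 28 without wild-type replicate 1, 11 without wild-type replicate 2 or 3 and 8 without heterozygous replicate 2 (5.25% of all genes). The counts of 28 and 11 have no share of all genes beside them, so they do not separate the members from all genes. Wild-type replicate 3, which went against its label, held 451 member counts, against 100 and 478 in replicates 1 and 2. Without it the ratio of mean sums was 0.423, the median member differed by -1.22 and the median gene by -0.49. In heterozygous HSC replicates 1, 2 and 3 the HSC list stood at 810, 0 and 978 CPM and the precursor B cell list at 1080, 0 and 46.6 CPM. The erythroid list was at 138, 684 and 654 CPM in wild-type HSC, where all 5 of its genes were detected, and at 0 in all 3 heterozygous libraries. The part of these marker levels in the genotype difference was not tested. limma called 6 members without heterozygous replicate 1 (2.17% of all genes called) and 3 without heterozygous replicate 3 (1.12%), each of which leaves the shallow library as 1 of 2.

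In MPP2 every heterozygous library (3271 to 7865 CPM) lay below every wild-type library (9739 to 17749 CPM), with a ratio of means of 0.412. Nusap1, a microtubule-binding protein that stabilises the spindle near chromatin (chr2:119618298-119651244, plus strand), was the 1 member that limma called among 40, beside 0.385% of all genes. It was at 387, 324 and 177 CPM in the wild type and at 0, 0 and 24.1 in heterozygous libraries, without overlap (-3.33, SE 0.76, adjusted p = 0.0191). This is 10 counts against 1, a pooled ratio of 0.0338 with an exact 95% interval of 0.000779 to 0.238. The call was lost with edgeR (adjusted p = 0.166), and in limma with the deposited values (0.197), a pseudocount of 0.1 (0.0571) or no filter (0.0564). DESeq2 gave no adjusted p for Nusap1. The limma call was also lost without any one of the heterozygous libraries or of wild-type replicates 1 and 2. Nusap1 overlaps Oip5 on the other strand, and whether counting used the strand is not given in the sources used here.

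Around Nusap1, 13 MPP2 members had an unadjusted p under 0.05, all lower, against 14.8% of all genes. The median member was at -0.75 and the median gene at 0.28 (-0.41 and 0.49 with TMM scaling, which gave 6 members at that threshold). Without heterozygous replicate 1 or wild-type replicate 2 there were 6 and 8 such members. All 6 cyclin-CDK genes, all 3 cytokinesis genes and all 4 tubulin and stathmin genes had negative differences, as did 5 of 6 chromosome structure genes. Kif22 was at 387, 81.0 and 88.5 CPM in the wild type and at 0 in all heterozygous libraries (-2.81, adjusted p = 0.0560). Precursor B cell genes were also higher in these wild-type libraries, at 2807 to 3984 CPM against 572 to 1107. So were mature B cell genes, at 1355 to 4515 against 434 to 830, and both lists hold Cd79a and Cd79b. The wild-type libraries held 10331 to 12339 counts. The part of these in the difference was not tested.

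**Figure D5:**
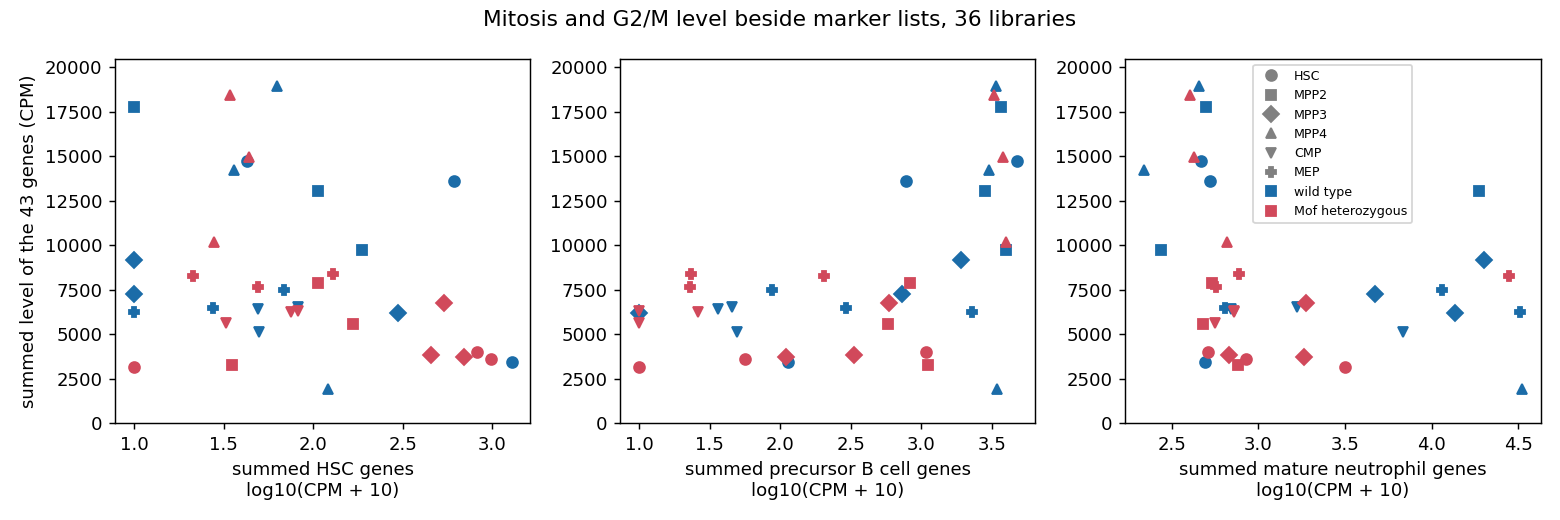
Summed CPM of the 43 genes (vertical axis) against the summed level of HSC, precursor B cell and mature neutrophil marker genes, as log10(CPM + 10), in the 36 libraries, with a symbol per population and a colour per genotype. Wild-type MPP2 and both genotypes of MPP4 have the highest median precursor B cell levels of the groups (3382 to 3811 CPM), and wild-type MPP4 replicate 3 combines 3437 CPM of them with 1940 CPM of mitosis genes and 33149 CPM of neutrophil genes.

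In MPP3 the sums overlapped (ratio of means 0.632), no member was called (0.492% of all genes), and 5 members had an unadjusted p under 0.05 (20.7% of all genes). The median member was at -0.10 against 0.68 for the median gene, and with TMM scaling at 0.21 against 0.95, so the sign of the members' median depends on the scaling. Racgap1 was at 274, 362 and 96.0 CPM in the wild type and at 119, 0 and 0 in heterozygous libraries (-2.45, limma, adjusted p = 0.0906). The 362 CPM of replicate 2 are 1 count. Without the neutrophil-rich libraries, which leaves 1 wild-type MPP3 library whose spread is taken from the other groups, limma called 5 members (15.4% of all genes called), with medians of 0.81 and 1.40 for the members and all genes. Without wild-type replicate 3 alone it called 4 (10.7%).

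In MPP4 the ratio of mean sums was 1.24 with all libraries and 0.876 without wild-type replicate 3, and the groups overlapped. The median member differed by 0.67 with that library (34 of 40 members higher, median gene 0.13) and by -0.20 without it (12 of 40 higher, median gene 0.00), so the direction rested on 1 library. No member was called (0% of all genes), and 1 had an unadjusted p under 0.05 (2.98%): Hmmr, a spindle assembly factor, at 1.62 (limma, adjusted p = 1). Precursor B cell genes were at similar levels in both genotypes here, 3029 to 3437 CPM and 3293 to 4002 CPM.

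CMP and MEP showed small differences between genotypes. In CMP the ratio of mean sums was 1.01, no member was called (0% of all genes) and none had an unadjusted p under 0.05 (0.385%), by limma, edgeR or DESeq2. The median member differed by 0.08 and the median gene by 0.07. In MEP all 3 heterozygous sums (7675 to 8375 CPM) lay above the wild-type sums (6258 to 7512 CPM), with a ratio of 1.20. No member was called (0% of all genes) and none had an unadjusted p under 0.05 (0.723%), again by each of the 3 tools. The median member was at 0.33 and the median gene at 0.07, and 30 of 40 members were higher, against 55.8% of all genes. Leaving out single libraries gave MEP ratios of 1.16 to 1.27, and 1.23 without the 3 neutrophil-rich libraries.

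Within each role the members ranged widely. Of the cyclin-CDK genes, Cks2 had the highest mean, at 0 to 491 CPM in wild-type libraries (median 211) and 0 to 488 in heterozygous ones (median 150), and it was seen in 32 of 36 libraries. Cyclin A2 (Ccna2) was seen in 29 libraries, cyclins B2 and B1 (Ccnb2, Ccnb1) in 28 and 21, Cdk1 in 28 and Cks1b in 32. Cks1b and Cks2 are close paralogs whose separation by the counting is not described. Of the APC/C pair, Ube2c (0 to 729 CPM, median 154, in the wild type and 0 to 756, median 52.6, in heterozygous libraries) was seen in 30 libraries and the activator Cdc20 in 22.

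Mitotic kinases were sparse. Birc5 (survivin), with the highest mean of that role, ran from 0 to 324 CPM in the wild type (median 32.2) and from 0 to 463 in heterozygous libraries (median 43.4). Plk1, the polo kinase, was seen in 23 libraries, Aurkb in 18 and Aurka in 17. In the spindle checkpoint, Bub3 had the highest mean, at 0 to 418 CPM in the wild type (median 152) and 0 to 233 in heterozygous libraries (median 113), with Mad2l1 seen in 28 libraries, Bub1b in 23 and Bub1 in 15. In heterozygous MPP4 against MPP2 and MPP3 the checkpoint genes had the smallest median difference of the roles, 0.53, and none of 3 at an unadjusted p under 0.05, whereas all 3 tested kinase and passenger genes were past it with a median of 1.89.

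Cenpe, a kinetochore motor, had the highest mean of the centromere genes over the 36 libraries (137 CPM), at 0 to 425 CPM (median 110) in the wild type and 0 to 317 (median 85.5) in heterozygous libraries, and the centromeric histone Cenpa and the kinetochore protein Cenpf were seen in 30 and 31 libraries. Kif11, the motor that pushes spindle poles apart, had the highest mean of the spindle group over the 36 libraries (118 CPM), with a median of 101 CPM in the wild type (0 to 362) and 73.7 in heterozygous libraries (0 to 634, the highest being a single count of heterozygous HSC replicate 2). Of the rest of that group, Ckap5, Tpx2 and Tacc3 were seen in 30, 30 and 28 libraries, Kif23 in 27, Kif22, Nusap1, Prc1 and Hmmr in 26 each, Ckap2 in 24 and Kif20a in 4. Racgap1 had the highest mean of the cytokinesis genes, at 0 to 405 CPM (median 90.8) in the wild type and 0 to 244 (median 54.1) in heterozygous libraries, with the contractile ring scaffold Anln and the RhoA activator Ect2 each seen in 22.

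Outside the tubulins and Stmn1, the chromosome structure genes Mki67, Top2a and Smc4 had the highest means of the members. Mki67 ran from 92.4 to 1864 CPM (median 420) in the wild type and from 0 to 2268 (median 287) in heterozygous libraries, and Top2a and the condensin ATPase Smc4 averaged 517 and 511 CPM. Smc2 was seen in 34 libraries, the condensin I subunits Ncapd2 and Ncaph in 32 and 22, and Smc4 in all 36. Tuba1b had the highest mean of the 43, at 166 to 2464 CPM (median 1265) in the wild type and 0 to 2740 (median 1165) in heterozygous libraries, followed by Tubb5 at 1143 CPM and the microtubule destabiliser Stmn1 at 979 CPM on average, and Tubb4b was at 262.

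A wider list of 107 other G2/M genes, covering regulators of their transcription, the APC/C, cohesin and more kinetochore and spindle genes, had 68 tested members. The F test over wild-type populations called 3 of these 68 (Anapc13, Pttg1 and Spag5), against 3.77% of all genes, and that over heterozygous populations none (0.754%). In wild-type CMP and MEP against LSK, 2 of the 68 were called, against 3.20% of all genes. There securin (Pttg1), the protein that restrains separase, was higher (1.24, limma, adjusted p = 0.0441) and the astrin gene Spag5 was lower (-1.59, adjusted p = 0.0283). Pttg1 had no count in any wild-type HSC, MPP2 or MPP3 library and was at 52.2, 26.2 and 166 CPM in wild-type MPP4, which overlapped the 26.2 to 88.1 CPM of CMP and MEP. In heterozygous HSC against MPPs 2 were called, against 0.984% of all genes. The APC/C subunit Anapc13 was lower (-2.16, adjusted p = 0.0267) and the subunit Anapc7 higher (2.20, adjusted p = 0.0398), the latter with 1 count worth 634 CPM in replicate 2. Anapc13 was at 0 in all 3 heterozygous HSC libraries, and its 0 in replicate 2 is uninformative at that depth. Whether either call holds without replicate 2 is not given here. Anapc13 was also the 1 call among the 68 between genotypes, higher in heterozygous MPP3 (0.492% of all genes called, 2.47, adjusted p = 0.0451), where all 3 wild-type libraries were at 0 and the heterozygous ones at 68.1, 138 and 140 CPM. A single count in wild-type MPP3 replicates 1, 2 and 3 is worth 137, 362 and 48.0 CPM. These zeros therefore lie near the limit of detection and do not show that the transcript was absent.

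The 5 most abundant genes of the wider list were the chromatin protein Hmgb2, the histone chaperone Rbbp4, Arl6ip1, the cohesin subunit Smc1a and the calmodulin gene Calm2, with means of 819, 615, 542, 386 and 380 CPM. Hmgb2 was at 1258, 1621 and 1417 CPM in wild-type MPP2 and at 252, 260 and 410 in heterozygous MPP2, without overlap (-2.16, SE 0.64, limma, adjusted p = 0.0857). In MPP3 it was at 1232, 1809 and 624 CPM and at 391, 238 and 125.7, again without overlap (-2.17, adjusted p = 0.0683). In MPP4 the difference was 0.03 (adjusted p = 1). No genotype difference of these 5 genes passed the adjusted threshold in any population or on average.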

How the data were processed

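The authors deposited 12 tables (6 populations, 2 genotypes), each with 3 libraries of 15 sorted cells, as signal: read from the values, counts divided by 1 size factor per library. Reads were aligned with BWA 0.6.2-r126 to mm10, per the submitters' processing notes. The counter, annotation, strand setting and use of molecular identifiers are unknown, since they are not stated in the sources used here. Whole counts were recovered (100% of values within 0.01 of a whole number), and 92 spike-in rows were left out of totals. In the wild-type MEP table, 16696 gene names stand 92 lines early and were taken by position (rank correlation with wild-type CMP 0.352 as deposited and 0.902 by position).

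CPM was computed from the recovered counts. Tests used limma 3.58.1 (R 4.3.3) with an intensity trend on log2(count rescaled to 41227 + 1), over 36 libraries and 12 coefficients, for 6501 genes with a mean of at least 1, with Benjamini-Hochberg adjustment at 0.05. The steps were tested on simulated data. Alternatives were edgeR 4.0.16 and DESeq2 1.42.0 on recovered counts, other scalings, pseudocounts and filters, and left-out libraries. Intervals for pooled ratios are exact 95% and cover counting error only, as does the floor of 3 counts. Depth, 1577 to 123765 counts per library, limits all values.

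Members called in a comparison and the most abundant member of each role were to be named with values, and from the wider list those called and the 5 most abundant. Kif22, Prc1, Cdk1, Kif23, Bub1b, Hmmr, the sparse members and the 9 of the genotype average were named after their values were seen. So were chosen the comparison of MPP4 with MPP2 and MPP3, the motif spacing, the precursor B cell list and the exclusion of neutrophil-rich libraries. The members and all lists were chosen with earlier results of these data known.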

Additional observations from a re-analysis of the deposited data

Results flagged for a closer look

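The ratio of mean summed member levels, heterozygous over wild type, was 0.412 in MPP2 and 1.20 in MEP. In MPP2 every heterozygous library lay below every wild-type library, and in MEP every heterozygous library lay above every wild-type one, which is why this pair was picked out. The difference between the 2 populations was not tested for the sum. Precursor B cell transcripts were 2807 to 3984 CPM in wild-type MPP2 and 572 to 1107 CPM in heterozygous MPP2, and 3 of the 6 MEP libraries held more than 10000 CPM of neutrophil genes. The part of these in either ratio was not tested.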

How the results depend on the processing

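Numbers here are members called of 40, with the share of all genes called in brackets where it was computed. With edgeR the count was 0 between genotypes in MPP2 (0.108%), 4 over wild-type populations (5.17%) and 5 for wild-type CMP and MEP against LSK (12.4%). It was 22 over heterozygous populations (6.01%), 0 for heterozygous HSC against MPPs (0.0923%) and 1 for heterozygous CMP and MEP against LSK (4.45%). For heterozygous MPP4 against MPP2 and MPP3 it was 20 (2.15%). With DESeq2, which gave no F tests, it was 0, 4, 0, 2 and 11 for the same 2-group comparisons in that order. The shares there were 1.32%, 13.5%, 0.0154%, 5.01% and 1.37%. TMM scaling gave 3 over wild-type populations (9.83%), 6 over heterozygous populations (1.78%) and 1 for heterozygous MPP4 against MPP2 and MPP3 (0.185%). A pseudocount of 0.1 gave 0 over wild-type populations, and one of 5 gave 2 there (3.68%). The pseudocount of 5 also gave 2 for wild-type CMP and MEP against LSK (3.14%) and 0 for heterozygous HSC against MPPs. No filter gave 0 in MPP2, over wild-type populations and for heterozygous HSC against MPPs. A mean of at least 5 gave 0 in MPP2, where Nusap1 was then not tested, and 0 over wild-type populations. The deposited values gave 0 in MPP2. They were used between genotypes only, since populations do not share their scale. Without shallow libraries the count was 1 over heterozygous populations (1.86%) and 0 for heterozygous HSC against MPPs. It was 3 for heterozygous MPP4 against MPP2 and MPP3 (0.692%), and comparisons that need wild-type MPP2 gave no value. Without neutrophil-rich libraries, chosen after seeing the data, it was 5 in MPP3 (15.4%) and 10 over wild-type populations (10.2%). It was 3 for wild-type CMP and MEP against LSK (1%) and 3 over heterozygous populations (1.03%). That setting leaves 1 wild-type MPP3 and 1 wild-type MEP library, so its counts that use wild-type libraries give no conclusion on the members.

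Leaving out single libraries gave 0 to 6 between genotypes in HSC, 0 to 2 in MPP2 and 0 to 4 in MPP3. It gave 0 to 6 over wild-type populations and 1 to 3 for wild-type CMP and MEP against LSK. Over heterozygous populations it gave 0 to 5, and for heterozygous HSC against MPPs 0 to 8. The highest counts, in that order, came with 2.17%, 0.431 to 2.26%, 10.7%, 10.8%, 2.23%, 2.14% and 6.49% of all genes called. The other comparisons stayed at 0 when single libraries were left out. Over all comparisons and settings, 749 counts were within 1.5 times the value reported and 77 were not. Counts that stayed at 0 are among the 749, so that number is no measure of stability. None of the single-gene differences changed sign, but a difference cannot move when a library outside its comparison is left out. The calls of single genes were lost 85 times over all settings. The cause of these shifts was not tested. No paired analysis was possible because the labels give the libraries running numbers that the groups do not share. With TMM scaling the median over all genes moved by over 0.1 between genotypes in MPP2, MPP3 and MPP4, to 0.49, 0.95 and 0.25. In the wild type it moved to 0.42 for HSC against MPPs, 0.50 for CMP and MEP against LSK and 0.51 for MPP4 against MPP2 and MPP3, with members' medians of 0.51, -0.28 and 0.54. Motif shares of members were the same in windows starting 200 bases before the start, where 17.7%, 36.6% and 6.14% of all genes held the first motif, CCAAT and both.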
